A study of Mus musculus with 22 samples.

Results

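The 8 genes described here are a chosen part of the hexose transporters of the Slc2a family. The count table of the series holds them under the symbols Slc2a1, Slc2a3, Slc2a4, Slc2a5, Slc2a6, Slc2a8, Slc2a10 and Slc2a12, out of 23420 gene symbols in all. It also holds Slc2a2, Slc2a7, Slc2a9 and Slc2a13, which are described apart and do not enter the sums and shares. Slc2a5 was chosen by its counts in control inguinal white adipose tissue (IWAT), far lower in obese than in lean mice, and the other 7 were added as its relatives. All 8 passed the filter on low counts, which kept 14458 genes. Slc2a5 passed it only through the lean libraries, since no obese library held more than 3 counts of it. The 22 RNA-sequencing libraries came from female C57Bl/6 wildtype mice, of which 5 were lean and ate chow and 6 were obese after 16 weeks of high fat diet (HFD). The mice were about 20 weeks old at transplantation per the study's methods. In each mouse E0771 cells, a breast cancer line of C57Bl/6 origin, were placed on the left side with Matrigel as carrier, and that inguinal/mammary pad gave the tumor-associated IWAT. The carrier without cells went into the opposite pad, the control IWAT of the same animal. Tissue was collected after 2 weeks. The paper reports larger tumors in the HFD-fed than in the chow-fed mice. The part of tumor size in the differences below was not tested. Mice are named by the number in their labels, and the same number in a lean and an obese mouse marks different animals.

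Most proteins of the Slc2a family (GLUTs) carry hexoses across membranes down their concentration gradient. In fat, GLUT4 (Slc2a4) waits in vesicles inside the adipocyte and moves to the surface when insulin binds its receptor, so that it limits insulin-stimulated glucose uptake, while GLUT1 (Slc2a1) lies mostly at the surface and serves basal uptake in most cells. GLUT5 (Slc2a5) carries fructose and is best known from the small intestine. Glucose taken up by adipocytes feeds de novo fatty acid synthesis, a pathway that insulin and carbohydrate feeding raise through the transcription factors SREBP1c and ChREBP.

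The libraries held between 5759775 and 8598108 counts on genes, with a median of 6953881.5. At this depth a library with 0 counts of a gene allows up to 3 counts, which was 0.348 to 0.528 CPM (counts scaled to library size with TMM). This limit, like the counting intervals below, covers counting error only. The first principal component (45.7% of the variance) set the 6 tumor-associated libraries of obese mice, at 27.2 to 147.8, apart from the other 16, at -59.0 to 1.32. All 8 adipocyte markers (Adipoq, Plin1, Fabp4, Cidec, Lipe, Pnpla2, Lep and Cfd) were above 0 in each group. Their summed level was 11579 to 15323 CPM in lean control, 7536 to 13117 in lean tumor-associated, 13285 to 23556 in obese control and 1864 to 11766 CPM in obese tumor-associated libraries. The lowest sums belonged to obese tumor-associated mice 4 (1864 CPM) and 0 (3156 CPM). Obese control mice 1 and 3 stood apart by their B cell markers, 432 and 400 CPM against at most 9.30 CPM in the other 4, and mouse 1 also held 1976.5 CPM of skeletal muscle markers. In such bulk libraries, fewer cells of a type and less RNA per cell cannot be told apart.

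Slc2a5 and Slc2a1 both lie on mouse chromosome 4 (mm10), Slc2a5 at chr4:150119283-150144169 and Slc2a1 at chr4:119108711-119137983, both on the plus strand. Their start regions run from 250 bases before to 50 bases after the start that RefSeq gives on GRCm38.p6. They are shown because, beside the tumor, obese mice held more Slc2a1 (log2 fold change 1.64) and less Slc2a5 (-7.36) than lean mice. In the control pads only Slc2a5 was far lower with obesity, and Slc2a1 hardly differed by diet (-0.09, edgeR adjusted p = 0.876). RefSeq windows were at hand for 6 of the 8 members, all but Slc2a3 and Slc2a4. The motifs searched on both strands, in capitals, were GGGCGG (GC box), CACGTG (E-box), ACGTG (the core bound by hypoxia-inducible factors, part of some E-boxes), TATAAA and CCAAT. The windows are chr4:150119094-150119393 and chr4:119108495-119108794.
Slc2a5: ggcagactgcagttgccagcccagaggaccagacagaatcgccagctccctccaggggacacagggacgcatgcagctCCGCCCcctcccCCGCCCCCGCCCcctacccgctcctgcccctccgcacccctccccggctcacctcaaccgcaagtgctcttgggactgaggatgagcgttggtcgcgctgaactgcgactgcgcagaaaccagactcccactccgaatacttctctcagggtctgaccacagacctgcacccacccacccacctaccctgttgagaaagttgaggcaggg
Slc2a1: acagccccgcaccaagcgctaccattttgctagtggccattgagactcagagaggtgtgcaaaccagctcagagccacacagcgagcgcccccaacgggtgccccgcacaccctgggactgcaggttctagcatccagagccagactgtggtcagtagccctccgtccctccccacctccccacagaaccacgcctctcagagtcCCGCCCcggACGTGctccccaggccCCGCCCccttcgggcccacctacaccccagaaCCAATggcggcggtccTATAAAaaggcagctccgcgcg
The Slc2a5 window held 3 GC boxes and none of the other 4 motifs. The Slc2a1 window held 2 GC boxes, 1 ACGTG, 1 TATAAA and 1 CCAAT and no E-box. Of 32851 RefSeq windows of this length, 35.7% held a GC box, 19.6% ACGTG, 13.6% TATAAA, 37.4% CCAAT and 7.15% an E-box. Both windows were equally rich in G and C (65.3%).

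In lean control IWAT, Slc2a4 was the most abundant member per length, at 71.5 ± 28.1 CPM per kb of exon (SD, n = 5). Slc2a5 followed with 13.1 ± 8.67 and Slc2a1 with 6.82 ± 0.817 CPM per kb, and in 5 of 5 libraries each of these was above the next. Slc2a8 stood at 4.16 ± 0.265 CPM per kb, above Slc2a10, Slc2a3 and Slc2a12 (1.15, 1.10 and 1.02 CPM per kb). Slc2a6 was lowest at 0.585 ± 0.355 CPM per kb, and the ranges of these last 4 overlapped.

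This order differed in the other groups. In obese control IWAT the order began with Slc2a4 (23.5 ± 5.71 CPM per kb, n = 6), Slc2a1 (6.40 ± 1.26) and Slc2a8 (4.88 ± 0.834), where the ranges of Slc2a1 and Slc2a8 overlapped, and Slc2a5 came last at 0.0211 CPM per kb. In obese tumor-associated IWAT, Slc2a1 led with 23.7 ± 12.8 and Slc2a4 followed with 7.66 ± 4.66 CPM per kb (n = 6). Slc2a1 was above Slc2a4 in 5 of these 6 libraries, and mouse 1 was the exception. Of the summed CPM per kb of the 8 genes, Slc2a4 made up 71.4% ± 2.10 in lean control and 63.0% ± 5.52 in lean tumor-associated IWAT, against 57.0% ± 7.30 and 21.2% ± 16.1 in the control and tumor-associated pads of obese mice. The share of Slc2a1 was 7.45% ± 2.26, 13.3% ± 3.28, 16.0% ± 3.90 and 54.2% ± 21.2 in the same order. The sum itself was 99.5 ± 35.9 CPM per kb in lean control and 60.5 ± 20.2 in lean tumor-associated IWAT, and 40.7 ± 5.15 and 40.9 ± 9.76 in obese control and obese tumor-associated IWAT.

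**Figure D1:**
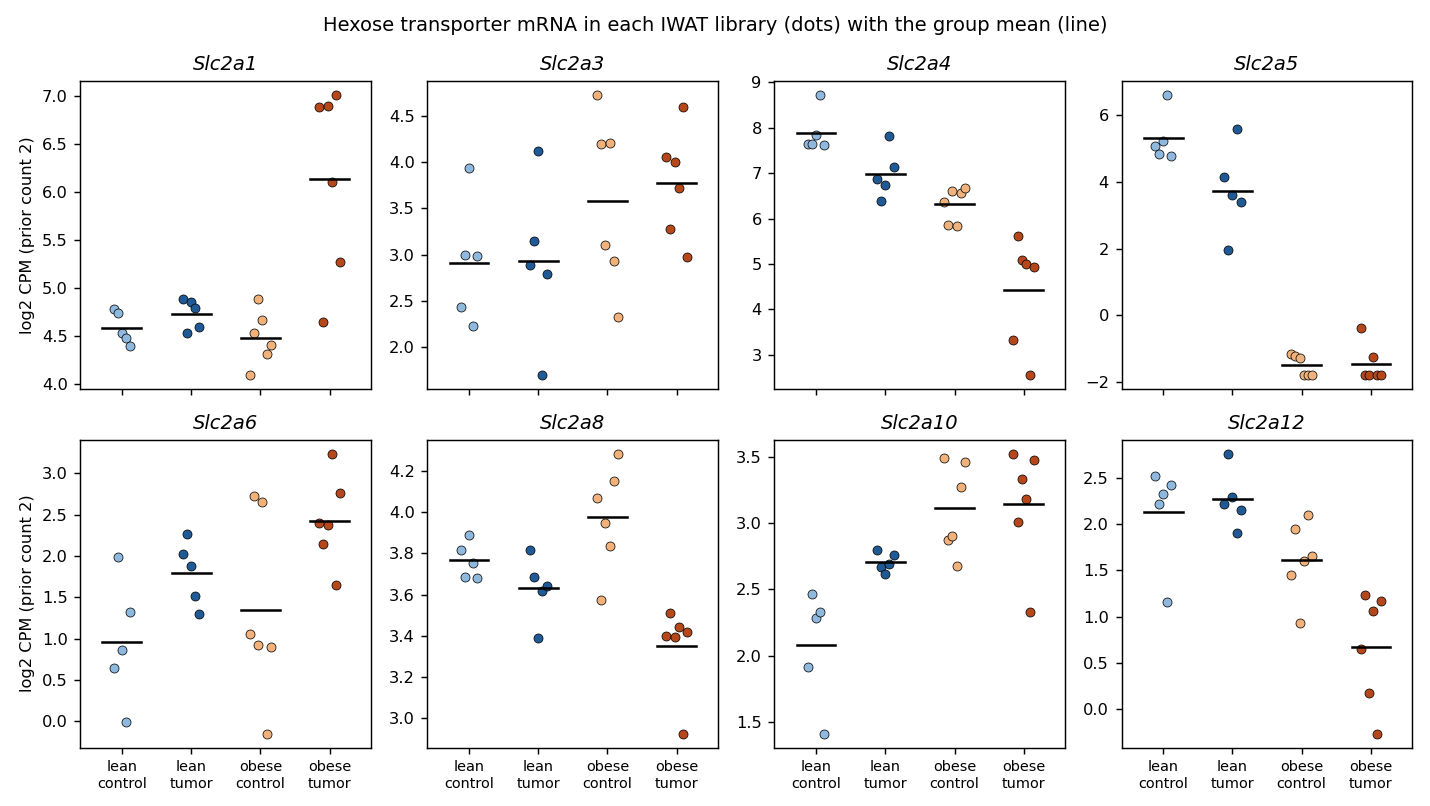
Level of each transporter mRNA (log2 CPM with a prior count of 2) in the 22 libraries, with a dot for each library and a line for the group mean. Slc2a5 sits at the floor in both obese groups, Slc2a4 steps down from lean control to obese tumor-associated IWAT, and 5 of 6 obese tumor-associated libraries lie above the other groups for Slc2a1. The vertical scale differs between panels.

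**Figure D2:**
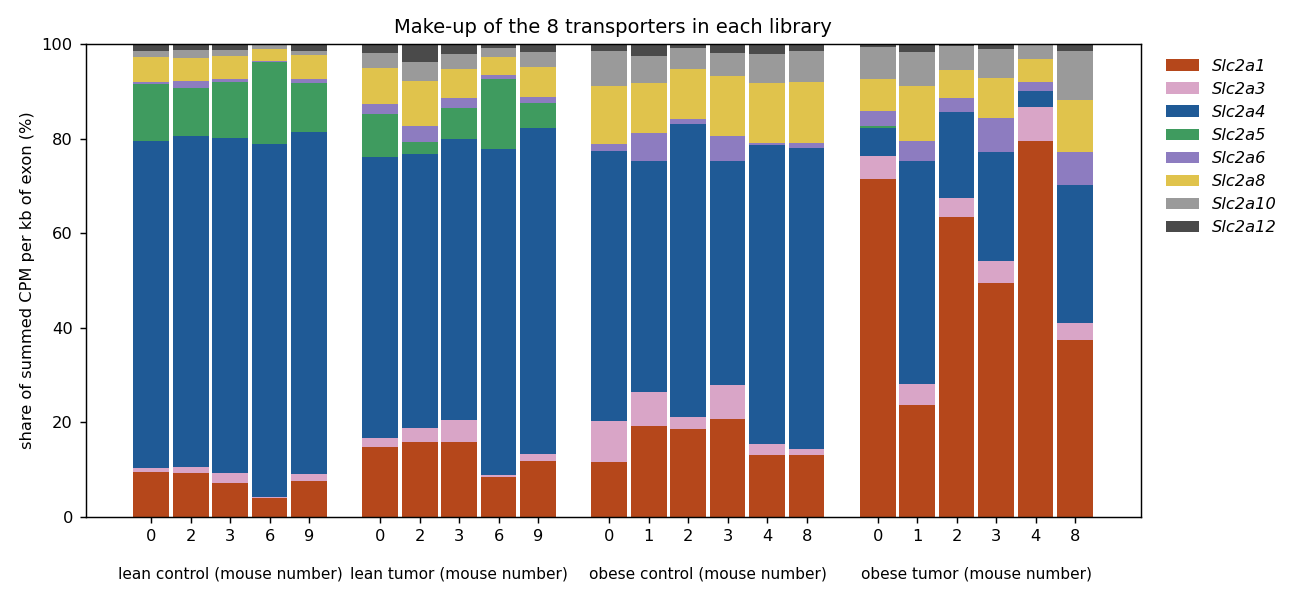
Share of each member (percent) in the summed CPM per kb of exon of the 8 transporters, 1 bar for each library, with the mouse number below it. Slc2a4 (blue) fills most of each bar in both control groups and in lean tumor-associated IWAT, except in obese control mice 1 and 3, where it holds just under 50%, and Slc2a1 (red) takes 23.7% to 79.5% in obese tumor-associated IWAT.

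Members were tested in a fit to all genes, with a Benjamini-Hochberg adjusted p under 0.05 in edgeR's quasi-likelihood test as the threshold. Slc2a5 has no test wherever control libraries enter, since those libraries chose it. Between lean tumor-associated and lean control IWAT, 0 of 7 members passed, against 4.18% of all genes tested (3.27% higher and 0.913% lower). Slc2a4 and Slc2a10 had an unadjusted p under 0.05 in edgeR, and DESeq2 also called 0 members. In this comparison, 473 genes were higher and 132 lower over all genes, 382 and 199 with upper-quartile scaling and 622 and 291 with DESeq2.

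Between obese tumor-associated and obese control IWAT, 4 of 7 members passed, against 54.5% of all genes (26.8% higher and 27.7% lower). Slc2a1 rose, and Slc2a4, Slc2a8 and Slc2a12 fell. Between obese and lean control IWAT, 2 of 7 passed, against 17.1% of all genes (9.54% higher and 7.53% lower), with Slc2a10 higher and Slc2a4 lower. Over all genes, 1380 were higher and 1088 lower in that comparison, and 1068 and 1446 with upper-quartile scaling. Between obese and lean tumor-associated IWAT, 4 of 8 passed, against 47% of all genes (24.7% higher and 22.4% lower), with Slc2a1 higher and Slc2a4, Slc2a5 and Slc2a12 lower. This count includes Slc2a5, although it was chosen in the control pads of the same mice. The obese tumor change differed from the lean tumor change in 1 of 7 members, Slc2a1, against 4.92% of all genes (2.58% higher and 2.34% lower). The members' median log2 fold change was 0.10, 0.05, 0.23, 0.11 and -0.51 in these 5 comparisons, and that of all genes tested was 0.01, -0.02, 0.04, 0.03 and -0.04. In the comparisons with the most calls the share of members called was close to that of all genes, so nothing is read from it about the family. The comparisons share libraries, and each is given with its own values.

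**Figure D3:**
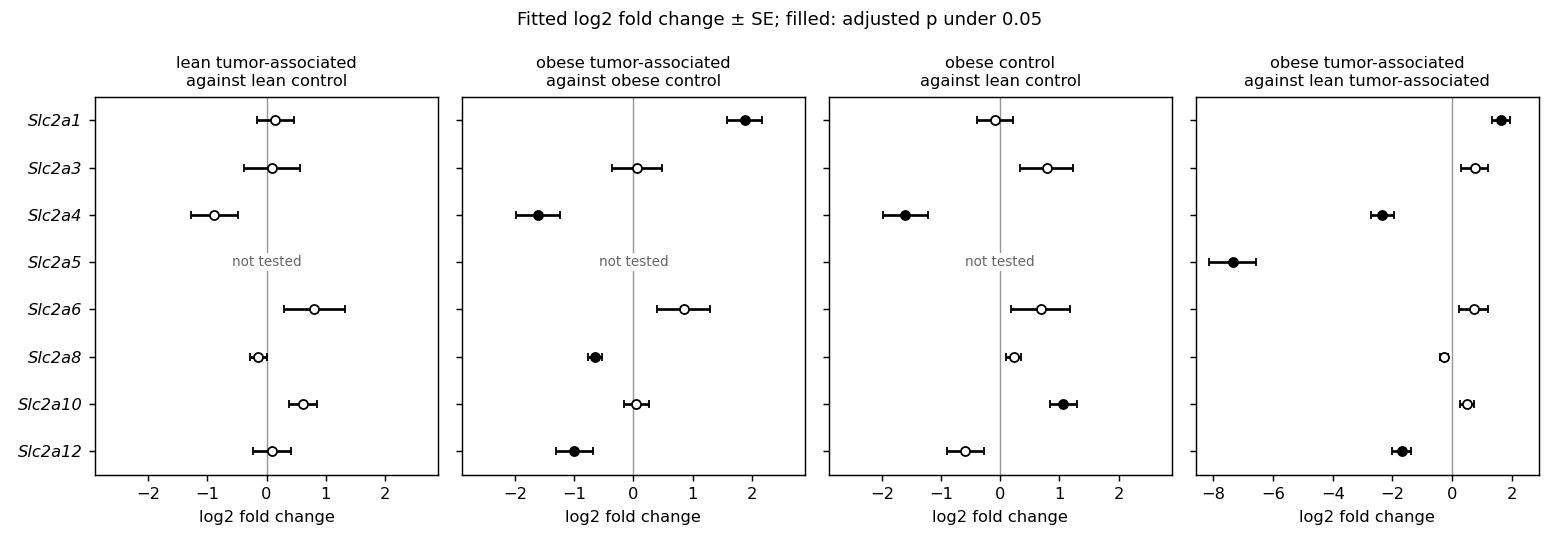
Fitted log2 fold change of each member (dot) with its standard error (bar) in 4 comparisons, filled where the adjusted p is under 0.05. Slc2a5 is not tested where control libraries enter, and in the comparison of tumor-associated IWAT, drawn on a wider axis, it lies at -7.36.

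Slc2a4 (chr11:69942539-69948188, minus strand), the insulin-responsive transporter, stood lower with obesity in both pads and lower beside the tumor in obese mice. In lean control IWAT it was at 199 CPM in mouse 0, 199 in mouse 2, 228 in mouse 3, 422 in mouse 6 and 196 in mouse 9. In lean tumor-associated IWAT the same mice gave 117, 83.0, 107, 227 and 140 CPM. The ranges overlapped only through the tumor-associated pad of mouse 6, and this mouse was highest in both pads. The tumor-associated pad was the lower in 5 of 5 lean mice, by 0.48 to 1.26 on the log2 scale, yet the fitted change of -0.88 (SE 0.40) did not pass the test in edgeR (adjusted p = 0.267, and 0.0749 to 0.612 over all alternatives). Obese control IWAT held 57.0 to 102 CPM of Slc2a4 with a median of 88.5, below each lean control library. The fall was 1.61 on the log2 scale (-1.61, SE 0.38, edgeR adjusted p = 0.00657).

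In obese tumor-associated IWAT, Slc2a4 ranged from 5.55 CPM in mouse 4 to 48.9 CPM in mouse 1, with a median of 31.0. No library of this group reached the lowest of obese control (57.0 CPM) or of lean tumor-associated IWAT (83.0 CPM). It was lower than the control pad in 6 of 6 mice, with a log2 fold change of -1.61 (SE 0.38, edgeR adjusted p = 0.00152), and lower than in lean tumor-associated IWAT by -2.34 (SE 0.39, edgeR adjusted p = 0.000124). The obese tumor change was not separable from the lean one (difference -0.73, SE 0.54, edgeR adjusted p = 0.346).

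Adipocyte markers moved with part of this. Between obese tumor-associated and obese control IWAT, 7 of 8 adipocyte markers fell, where 27.7% of all genes were called lower. Mice 4 and 0, with the lowest adipocyte sums, also held the least Slc2a4 (5.55 and 9.78 CPM). The part of the adipocyte markers in the change of Slc2a4 was not tested. Set against the adipocyte markers, Slc2a4 had a median of 16.5 CPM per 1000 CPM of marker sum in the control and 11.9 in the tumor-associated pads of lean mice, and of 4.33 and 3.33 in those of obese mice. The range of this ratio in obese control IWAT (3.92 to 5.84) did not overlap that in lean control IWAT (13.9 to 34.4). The marker sum under this ratio also differed by diet, since 2 of 8 markers were called higher and 1 lower. Lep was at 445 to 963 CPM in lean and 2583 to 5601 CPM in obese control IWAT, and Cidec at 617 to 947 and 1335 to 2800 CPM. Cfd ran the other way, at 2392 to 3828 and 430 to 1084 CPM. The ratio therefore carries changes of the markers as well as of Slc2a4. Over all genes, 9.54% were called higher and 7.53% lower.

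Slc2a1, the basal glucose transporter, rose with the tumor in obese mice. It was at 20.9 to 27.3 CPM in lean control, 22.8 to 29.4 in lean tumor-associated and 16.8 to 29.4 CPM in obese control IWAT, groups with overlapping ranges. In obese tumor-associated IWAT it was at 118 CPM in mouse 0, 24.8 in mouse 1, 119 in mouse 2, 68.9 in mouse 3, 129 in mouse 4 and 38.5 in mouse 8. All but mouse 1 lay above each of the other 16 libraries, and mouse 1 lay within their range.

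The tumor-associated pad held more Slc2a1 than the control pad in 6 of 6 obese mice, by 0.12 to 2.79 on the log2 scale, with a fitted change of 1.88 (SE 0.29, edgeR adjusted p = 5.27e-05). In lean mice it was higher in 4 of 5, and the change of 0.15 (SE 0.32) did not pass the test (edgeR adjusted p = 0.955). Against lean tumor-associated IWAT the obese group was higher by 1.64 (SE 0.31, edgeR adjusted p = 0.000301). The obese and lean tumor changes differed by 1.73 (SE 0.43, edgeR adjusted p = 0.0418). That last call was marginal: with 1 library left out it was lost in 16 of 22 fits (adjusted p from 0.00675 to 0.0852), and it was lost with the mouse as a block (1.53, adjusted p = 0.0597) and without obese tumor-associated mice 0 and 4 (1.33, adjusted p = 0.0826). Gm12868 overlaps Slc2a1 on the other strand, and since the strand setting of the counting is not given in the sources used here, reads of the pair cannot be told apart.

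Proliferation markers rose beside the tumor in obese mice, as Slc2a1 did. All 4 of them rose in obese tumor-associated against obese control IWAT, where 26.8% of all genes were called higher. None was at 0 in any group, and their sum was 448 to 1470 CPM in obese tumor-associated and 100 to 234 CPM in obese control libraries. By mouse, the sum was 1119 CPM in mouse 0, 448 in mouse 1, 764 in mouse 2, 684 in mouse 3, 1470 in mouse 4 and 718 in mouse 8. Mouse 4 was highest and mouse 1 lowest for both Slc2a1 and these markers, while the adipocyte sum was lowest in mouse 4 and highest in mouse 1. Mouse 8 held more of the proliferation markers than mouse 3 but less Slc2a1 (38.5 against 68.9 CPM). In lean mice edgeR called 0 of these 4 beside the tumor and DESeq2 called 1, against 4.18% of all genes in edgeR. All 4 had an unadjusted p under 0.05 in edgeR there, with a median log2 fold change of 1.18, against 0.15 for Slc2a1. Lean tumor-associated mouse 6 held 460 CPM of these markers, above obese mouse 1, and 27.5 CPM of Slc2a1. The part of cell composition in the rise of Slc2a1 was not tested. The ratio of Slc2a1 to Slc2a4 per kb, on a log2 scale, was -4.27 to -2.87 in lean control and -2.30 to -1.19 in obese control libraries. In tumor-associated libraries it was -3.05 to -1.87 in lean mice and -0.99 to 4.53 in obese mice.

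**Figure D4:**
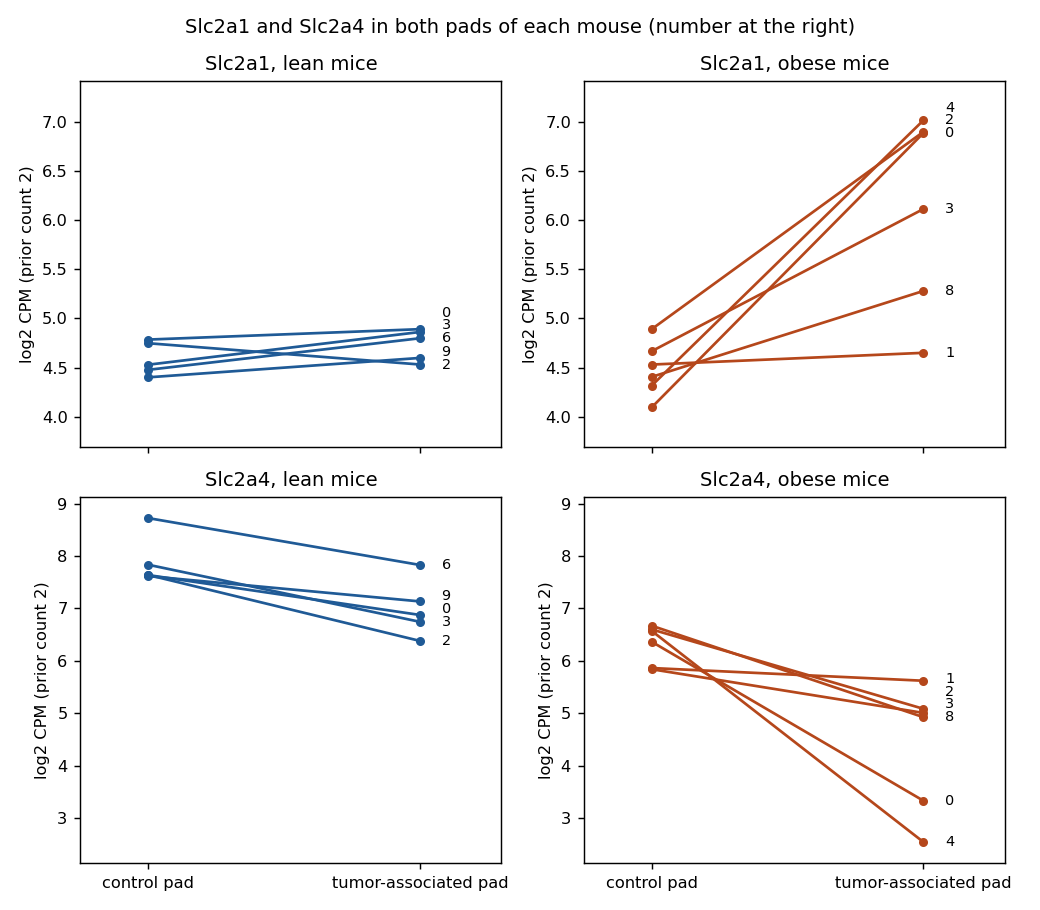
Slc2a1 (top) and Slc2a4 (bottom) in the control and the tumor-associated pad of each mouse, in log2 CPM with a prior count of 2, with lean mice at the left and obese mice at the right and a line joining the 2 pads of a mouse. Slc2a4 was lower in the tumor-associated pad of all 11 mice, and Slc2a1 was higher in all 6 obese mice, least in mouse 1.

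Slc2a5, the fructose transporter, was present in lean IWAT and all but missing from obese IWAT. Lean control libraries held 290 counts in mouse 0, 162 in mouse 2, 244 in mouse 3, 551 in mouse 6 and 161 in mouse 9, or 33.7, 28.3, 37.4, 97.0 and 27.3 CPM. The 6 obese control libraries held 1 count each in mice 0, 1 and 2 and 0 counts in mice 3, 4 and 8. The pooled level was 617 times as high in lean as in obese control IWAT (95% counting interval 211 to 2996). These are the values that chose the gene, and they are given with no test. In the same fit its log2 fold change of -8.98, which depends on the prior count at so few counts, was the lowest of all 14458 genes, with Elovl6 (-5.56) next. Since this fall chose the gene, its rank restates the choice and adds no support. In lean control IWAT, Slc2a5 was at 2.45 CPM per 1000 CPM of adipocyte markers in the median library, and in obese control IWAT at most at 0.0108.

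The tumor-associated libraries, which did not enter the choice, showed the same contrast. In lean tumor-associated IWAT, mouse 0 held 114, mouse 2 held 23, mouse 3 held 87, mouse 6 held 371 and mouse 9 held 67 counts of Slc2a5. In obese tumor-associated IWAT, mouse 0 held 3 counts, mouse 3 held 1 and the other 4 mice held 0. The groups did not overlap, and the pooled level was 207 times as high in lean mice (95% counting interval 80.5 to 762). The log2 fold change was -7.36 (SE 0.79, edgeR adjusted p = 3.85e-06), lower in 6 of 6 obese libraries than in any lean one, and it was -8.67 without obese tumor-associated mouse 0 and -6.60 without lean tumor-associated mouse 6. With an exact permutation test (two-sided, all 462 divisions of these 11 libraries), p was 0.0021645, which is the smallest value possible here. Since both pads come from the same mice, this is a second tissue sample and not a second set of animals. Slc2a5 was chosen in the other pads of these mice, and it passed the filter only through lean libraries. The edgeR and permutation p-values are therefore not independent of the choice and add no separate support.

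Within lean mice, Slc2a5 was lower in the tumor-associated pad of 5 of 5 mice, by 0.95 to 2.89 on the log2 scale. The fitted value of -1.29 is a description, since the control libraries enter it, and it was -2.05 without the tumor-associated library and -0.80 without the control library of mouse 6. Mouse 6 held the most Slc2a5 and the most Slc2a4 in both pads.

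Slc2a12 (chr10:22645011-22704285, plus strand) encodes GLUT12, a second transporter that insulin can bring to the surface. It was at 1.94 to 5.46 CPM in lean control and 3.48 to 6.53 CPM in lean tumor-associated IWAT. In obese mice it was at 1.61 to 3.99 CPM in control IWAT with a median of 2.81, and at 0.541 to 2.07 CPM beside the tumor with a median of 1.54. The obese tumor-associated group lay below all lean tumor-associated libraries and overlapped obese control. It fell beside the tumor in obese mice by -1.004 (SE 0.31, edgeR adjusted p = 0.0108), lower in 6 of 6 mice, and this call was lost without mice 0 and 4 (-0.79, adjusted p = 0.0517). Against lean tumor-associated IWAT the change was -1.69 (SE 0.32, edgeR adjusted p = 0.000333). Counts were 4 to 16 per obese tumor-associated library, and Tbpl1 overlaps Slc2a12 on the other strand.

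Slc2a8 (chr2:32972990-32982083, minus strand) encodes GLUT8, which stays mostly inside the cell. Its level ran from 7.31 to 19.2 CPM over all 22 libraries. It fell beside the tumor in obese mice by -0.65 (SE 0.12, edgeR adjusted p = 0.000335), lower in 6 of 6 mice, with obese control at 11.6 to 19.2 CPM and obese tumor-associated at 7.31 to 11.1 CPM, ranges that did not overlap. In lean mice the change was -0.14 (SE 0.14, edgeR adjusted p = 0.782). The difference between the 2 changes, -0.51 (SE 0.18), missed the threshold (edgeR adjusted p = 0.0753) and passed it without obese control mice 1 and 3 (-0.63, adjusted p = 0.0447) and without obese tumor-associated mouse 1 (-0.53, adjusted p = 0.0482).

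Slc2a10 (chr2:165503787-165519917, plus strand), which encodes GLUT10, was the member that rose with obesity in control IWAT. Lean control libraries held 2.37 to 5.25 CPM and obese control libraries 6.12 to 10.9 CPM, with no overlap, a log2 fold change of 1.06 (SE 0.23, edgeR adjusted p = 0.00324). It kept this call in all alternatives, with an adjusted p of at most 0.0117. In lean tumor-associated IWAT it was at 5.84 to 6.66 CPM, above each lean control library and higher in 5 of 5 mice, but the change of 0.61 (SE 0.24) did not pass the test (edgeR adjusted p = 0.177). Obese tumor-associated IWAT held 4.74 to 11.2 CPM, and neither the change beside the tumor (0.05, edgeR adjusted p = 0.857) nor that against lean tumor-associated IWAT (0.50, SE 0.22, edgeR adjusted p = 0.0673) passed. The latter passed without obese tumor-associated mouse 4 (0.63, adjusted p = 0.0155) and without mice 0 and 4 (0.56, adjusted p = 0.0433).

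Slc2a3 (chr6:122727809-122801640, minus strand), the high-affinity GLUT3 of neurons and of some blood cells, was called in no comparison. Its level spread widely within groups, from 4.40 to 15.0 CPM in lean control, 2.96 to 17.1 in lean tumor-associated, 4.73 to 26.1 in obese control and 7.60 to 23.8 CPM in obese tumor-associated IWAT. Both lean groups were highest in mouse 3. The obese groups were higher on average, with log2 fold changes of 0.79 (SE 0.45, edgeR adjusted p = 0.248) in control and 0.75 (SE 0.45, edgeR adjusted p = 0.175) in tumor-associated IWAT. The second passed without lean tumor-associated mouse 3 (1.18, adjusted p = 0.0462).

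Slc2a6 (chr2:27021363-27027998, minus strand) encodes GLUT6, a transporter of the lysosomal membrane known from macrophages. It was the scarcest member of lean control IWAT, at 4 to 21 counts per library. In obese control IWAT, mice 1 and 3 held 44 and 48 counts and the other 4 held 4 to 13, and these are the 2 libraries with the highest B cell markers. Obese tumor-associated libraries held 21 to 71 counts. The change beside the tumor in obese mice was 0.85 (SE 0.45, edgeR adjusted p = 0.115) and was higher in 5 of 6 mice. It passed with the mouse as a block (1.10, adjusted p = 0.0229) and without obese control mouse 1 (1.19, adjusted p = 0.0331), mouse 3 (1.17, adjusted p = 0.0377) or both (1.93, adjusted p = 0.00108). In 25 of 29 alternatives it was not called, with an adjusted p up to 0.257. With 1 library left out it was lowest, at 0.63, without obese tumor-associated mouse 3. That library held the most Slc2a6 (71 counts) and 101 CPM of B cell markers. Macrophage markers rose beside the tumor in obese mice too, 7 of 8 of them, where 26.8% of all genes were called higher. None of these markers was at 0, and their sum was 1307 to 4006 CPM against 962 to 1358 CPM in obese control IWAT. Their part in the level of Slc2a6 was not tested.

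The genes whose level ran most like each transporter were found by Pearson's r of log2 CPM over the 22 libraries. This is a description: the 2 pads of a mouse are not independent, and all genes of a library share its cell makeup. For Slc2a5 the 5 nearest genes were Acaca (r = 0.986), Acly (0.986), Tkt (0.975), Elovl6 (0.971) and Fasn (0.966). Acaca, Acly, Elovl6 and Fasn encode enzymes of fatty acid synthesis and elongation, and Tkt encodes transketolase of the pentose phosphate pathway. The lean and obese libraries form separate clusters in these values. With group means removed, r was 0.733 for Acaca, 0.816 for Acly, 0.694 for Tkt, 0.708 for Elovl6 and 0.468 for Fasn, and of these only Acly remained among the 5 nearest genes. Over the 10 lean libraries alone, r was 0.958 for Acaca, 0.975 for Acly, 0.964 for Tkt, 0.948 for Elovl6, 0.969 for Fasn and 0.950 for Slc2a4. With group means removed in these lean libraries, r was 0.933, 0.961, 0.947, 0.919, 0.950 and 0.917 in the same order. In the obese libraries Slc2a5 was at 0 to 3 counts, so its deviations there lie at the floor. In lean tumor-associated against lean control IWAT, where Slc2a5 stood at -1.29, Acaca fell by -1.09 (edgeR adjusted p = 0.0257) and Tkt by -1.06 (edgeR adjusted p = 0.0232). Both calls were lost in 6 of the 22 fits that left out 1 library. The values for Acly (-1.04, edgeR adjusted p = 0.124), Elovl6 (-1.24, edgeR adjusted p = 0.194) and Fasn (-1.08, edgeR adjusted p = 0.128) did not pass. These 5 genes were chosen for running like Slc2a5 over libraries that include these 10. A fall beside that of Slc2a5 follows in part from the choice, and these p-values add no support for a shared change. In lean control IWAT Acaca was at 3921 ± 1621 CPM (SD, n = 5) and in obese control IWAT at 164 ± 28.2 CPM (SD, n = 6).

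**Figure D5:**
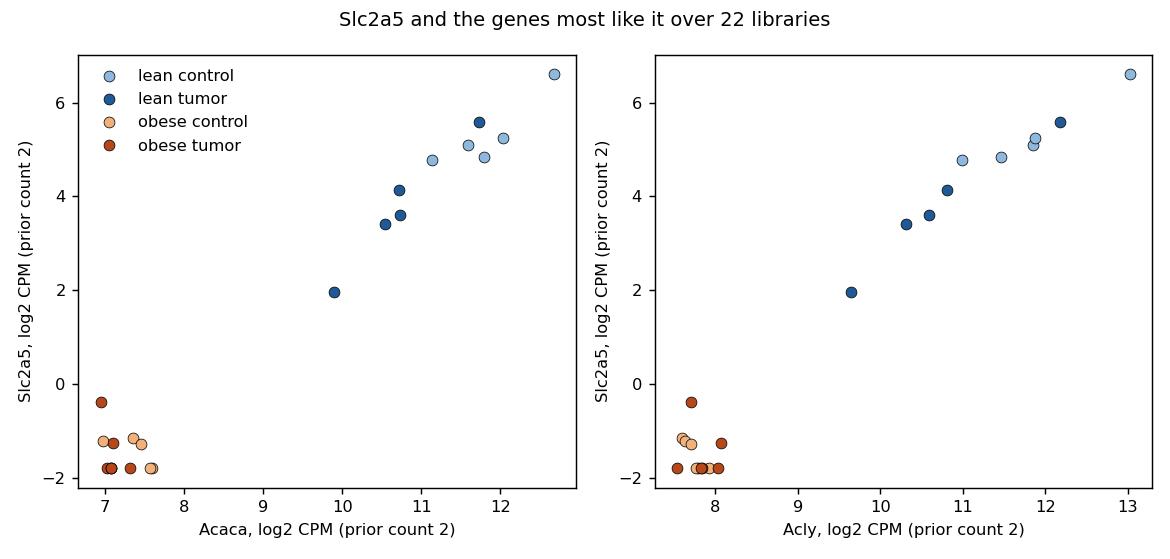
Slc2a5 against Acaca (left) and Acly (right), in log2 CPM with a prior count of 2, with a dot for each of the 22 libraries colored by group. The 12 obese libraries lie in the lower left corner, where Slc2a5 is at 0 to 3 counts, and the 10 lean libraries lie along a rising band with lean control mouse 6 at its top.

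For Slc2a4 the nearest were Cdo1 (r = 0.984), which encodes cysteine dioxygenase, Palm2 (0.984) and Prkaa2 (0.981), the alpha2 catalytic subunit of AMP-activated protein kinase. With each group's mean removed, Mlxipl (ChREBP) was nearest (0.971). For Slc2a1 the nearest were Pvt1 (0.968), the long noncoding RNA gene next to Myc, Poldip3 (0.960) and Timm8a1 (0.959), and Pvt1 was still first with group means removed (0.925). Pvt1 was at 26.6 to 289 CPM in obese tumor-associated and 13.2 to 32.7 CPM in obese control IWAT. For Slc2a6 they were Lcp2 (0.934), Evi2b (0.934) and Gpsm3 (0.934), all known from leukocytes. The other members had lower values: Slc2a12 with Sytl2 (0.925), Slc2a8 with Mprip (0.919), Slc2a10 with Blvra (0.878) and Slc2a3 with Kdm5a (0.780). Between members, Slc2a1 and Slc2a4 ran opposite (r = -0.79) and Slc2a4 and Slc2a5 together (0.743), which with group means removed came to -0.58 and 0.251. In the lean libraries alone, with group means removed, r of Slc2a4 and Slc2a5 was 0.917.

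Of the other 4 Slc2a genes, Slc2a7 had 1 count in 1 of the 22 libraries and was not tested. Slc2a13, the proton myo-inositol cotransporter, fell in obese tumor-associated IWAT against both obese control (-1.02, SE 0.23, edgeR adjusted p = 0.00117) and lean tumor-associated IWAT (-1.06, SE 0.24, edgeR adjusted p = 0.00139). Of 8 sodium-coupled and SWEET transporters, 3 were tested. Slc5a1 (SGLT1, sodium-glucose cotransport) was at 7.73 ± 1.85 CPM in the control and 7.44 ± 1.52 CPM in the tumor-associated pads of lean mice (SD, n = 5), and at 3.29 ± 1.60 and 0.783 ± 0.727 CPM in those of obese mice (SD, n = 6). Its log2 fold change was -1.22 in control (edgeR adjusted p = 0.0358, a call lost in 8 of the 22 fits that left out 1 library) and -3.20 in tumor-associated IWAT (edgeR adjusted p = 2.09e-05) between the diets. Luminal epithelium markers moved with it: 2 of 5 fell in obese control and 5 of 5 in obese tumor-associated IWAT against the lean groups. Over all genes, 7.53% and 22.4% were called lower in these comparisons. No marker was at 0, and the sums were 858 to 1535 CPM (control) and 829 to 1793 CPM (tumor-associated) in lean mice. In obese mice they were 365 to 916 and 183 to 475 CPM. The part of these markers was not tested. Slc5a9 fell by -2.20 and -3.29 in the same comparisons (edgeR adjusted p = 0.0264 and 0.000946). Slc50a1 rose by 0.36 in obese control IWAT (edgeR adjusted p = 0.00913).

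Of 6 genes for fructose and sorbitol enzymes, 5 were tested and 0 were called by edgeR in any comparison. Between obese and lean control IWAT 1 had an unadjusted p under 0.05 and DESeq2 called 1. Between obese tumor-associated and obese control IWAT 2 had an unadjusted p under 0.05 and DESeq2 called 1. In the other 3 comparisons both counts were 0. Of all genes, edgeR called 4.18% to 54.5%, depending on the comparison. By diet, the list's median log2 fold change was 0.52 in the control pads (all genes 0.04) and 0.32 in the tumor-associated pads (0.03). Beside the tumor it was -0.24 in lean mice (all genes 0.01) and -0.17 in obese mice (-0.02). For the difference of these tumor changes it was -0.12 (all genes -0.04). Khk, ketohexokinase, which phosphorylates fructose, was at 12.7 ± 3.68 CPM in lean control (SD, n = 5) and 10.4 ± 3.24 CPM in obese control IWAT (SD, n = 6), a log2 fold change of -0.29 (edgeR adjusted p = 0.555). This sign is opposite to that of the list's median there.

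Of 8 genes for hexose phosphorylation and its first steps, 7 were tested. Between obese and lean control IWAT 1 rose and 2 fell, against 17.1% of all genes called, with a median of 0.07 against 0.04 over all genes. Hk2, the hexokinase of insulin-sensitive tissue, was at 285 ± 127 CPM in lean control (SD, n = 5) and 111 ± 23.5 CPM in obese control IWAT (SD, n = 6), a change of -1.36 (SE 0.27, edgeR adjusted p = 0.00161) with no overlap. Gpi1, glucose-6-phosphate isomerase, fell by -0.62 (edgeR adjusted p = 0.0136), and Hk3 rose by 1.05 (edgeR adjusted p = 0.0123). Beside the tumor in obese mice 3 rose and 0 fell, where 54.5% of all genes were called (26.8% higher), with a median of 0.38 against -0.02. These were Hk3 (1.65, edgeR adjusted p = 4.67e-05), a hexokinase known from leukocytes, Hk1 (0.82, edgeR adjusted p = 0.000194), the widespread form, and Gpi1 (0.65, edgeR adjusted p = 0.00199). In the same comparison 7 of 8 macrophage and 4 of 4 proliferation markers were higher, and their part was not tested. In lean mice edgeR called 1 of the 7 beside the tumor, Hk3 (1.35, edgeR adjusted p = 0.00898, and 0.0512 without lean tumor-associated mouse 2), while 3 had an unadjusted p under 0.05 and DESeq2 called 2, Hk3 and Hk2. Of the macrophage markers 6 of 8 were higher there too, where 4.18% of all genes were called (3.27% higher).

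Of 14 genes for trafficking of GLUT4 vesicles, all were tested, and 2 rose and 3 fell in obese against lean control IWAT, where 17.1% of all genes were called (9.54% higher and 7.53% lower), with a median of 0.09 against 0.04 over all genes. Vamp2, a vesicle SNARE protein, was at 30.0 ± 2.19 CPM in lean control (SD, n = 5) and 17.5 ± 1.94 CPM in obese control IWAT (SD, n = 6), a change of -0.77 (SE 0.12, edgeR adjusted p = 0.000166). Tbc1d4 (AS160), the Akt substrate that holds GLUT4 vesicles back, fell by -0.47 (edgeR adjusted p = 0.0238), and Myo1c, a motor protein, rose by 0.57 (edgeR adjusted p = 0.0104). Beside the tumor in obese mice 3 rose and 4 fell, against 54.5% of all genes, with a median of -0.00053 against -0.02. The largest falls were Sort1 (sortilin, -1.44, edgeR adjusted p = 0.000526), Tusc5 (-1.13, edgeR adjusted p = 0.00679) and Akt2 (-0.60, edgeR adjusted p = 0.00021). Of the adipocyte markers 7 of 8 were lower in the same comparison, with a median of -1.24, and their part was not tested. In lean mice 0 of 14 passed in edgeR beside the tumor, against 4.18% of all genes, while 2 had an unadjusted p under 0.05 and DESeq2 called 0.

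Of 13 regulators of glucose uptake, 3 fell and 0 rose in obese against lean control IWAT, where 17.1% of all genes were called (7.53% lower), with a median of 0.01 against 0.04 over all genes. Mlxipl, which encodes the glucose-sensing factor ChREBP, was at 150 ± 53.8 CPM in lean control (SD, n = 5) and 31.4 ± 5.44 CPM in obese control IWAT (SD, n = 6), a change of -2.25 (SE 0.38, edgeR adjusted p = 0.000411). Srebf1, which encodes SREBP1, was at 467 ± 115 and 154 ± 42.2 CPM, a change of -1.60 (SE 0.22, edgeR adjusted p = 6.48e-05). Mlx, the partner of ChREBP, fell by -0.64 (edgeR adjusted p = 0.00204). In tumor-associated IWAT, Mlxipl and Srebf1 were also lower in obese than in lean mice (-2.46 and -1.58, edgeR adjusted p = 6.32e-05 and 2.46e-05).

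Beside the tumor in obese mice 4 of these 13 rose and 7 fell, where 54.5% of all genes were called (26.8% higher and 27.7% lower), with a median of -0.52 against -0.02. Myc was at 157 ± 103 CPM in obese tumor-associated against 30.2 ± 15.9 CPM in obese control IWAT (SD, n = 6 each), a change of 2.37 (SE 0.38, edgeR adjusted p = 7.37e-05), and the groups overlapped. Klf15 (-1.60, edgeR adjusted p = 0.00226) and Pparg (-1.24, edgeR adjusted p = 0.00061), both transcription factors of adipocytes, fell, beside 7 of 8 adipocyte markers. In lean mice 0 of 13 passed in edgeR, against 4.18% of all genes, while 3 had an unadjusted p under 0.05 and DESeq2 called 0.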

How the data were processed

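All 22 libraries were used, 2 pads from each of 5 lean and 6 obese mice, grouped by the sample labels. Per the study's methods the lymph node and the tissue sheet bordering the tumor were discarded, and ribosomal RNA was depleted. The authors used prinseq for trimming, STAR 2.4.0f for alignment to mm10 and HTSeq for counting (settings and annotation not given in the sources used here), and deposited raw counts per gene symbol. The 5 lines that name no gene held 57.0% to 65.9% of each column and were left out.

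The main test was the quasi-likelihood test of edgeR 4.0.16 under R 4.3.3, after TMM scaling and filterByExpr, with all groups in 1 fit, with Benjamini-Hochberg adjustment over 14458 genes. Levels per kb use the exon union of GENCODE M21. The script was tested on simulated data. Alternatives were DESeq2 1.42.0, upper-quartile scaling, no filter, a fit of only the compared groups, a block for the mouse (limma 3.58.1 between diets), and each library left out. Leaving out obese tumor-associated mice 0 and 4 or obese control mice 1 and 3 was chosen after seeing the data. The smallest chi-square per degree of freedom between libraries of a group was 5.95, far above sampling noise, so all were kept as separate samples. Labels do not say whether mice shared a cage or a day.

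Both pads come from the same animal, which pairs them. Deviations from group means correlated with a median of 0.508 over lean pairs (5 of 5 over 0.1) and 0.168 over obese pairs (4 of 6).

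Named genes are the 8 members, the other Slc2a genes, up to 3 called genes of each pathway list and comparison by fold change, and the 3 nearest genes by correlation (5 for Slc2a5). Khk and the genes nearest to Slc2a2 were named after values were seen. Members and lists were chosen with earlier results of these data known.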

Additional observations from a re-analysis of the deposited data

Results flagged for a closer look

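Lean control mouse 6 lay far above the other 4 lean control libraries for Slc2a4 (422 CPM) and Slc2a5 (97.0 CPM) and far below them for Slc2a12 (1.94 CPM). Obese tumor-associated mouse 4 lay far below the other 5 for Slc2a8 (7.31 CPM). Each has a gap to its neighbor too large for the group's range by Dixon's criterion. These are 4 of 32 groups checked, where chance gives about 1 in 20 for a single check. The checks are not independent, since all but the Slc2a8 value come from lean control mouse 6. No excess of outliers is read from this count.

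The tumor change of Slc2a1 differed between obese and lean mice by 1.73 on the log2 scale, by a test of the difference itself (edgeR adjusted p = 0.0418, and 0.00453 to 0.0852 over all alternatives).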

How the results depend on the processing

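Over all genes, the count for lean tumor-associated against control IWAT was 605, and 913 with DESeq2, 1437 in a fit of those groups alone and 183 to 952 with 1 library left out (lowest without lean tumor-associated mouse 2, highest without obese tumor-associated mouse 4). For obese against lean control IWAT, 2468 became 1606 to 3428 (without lean control mouse 6 and without obese tumor-associated mouse 4). For the obese minus lean tumor change, 711 became 2364 with DESeq2, 18 without a filter, 199 without obese tumor-associated mice 0 and 4, and 1 to 3568 with 1 library left out (without lean tumor-associated mouse 0 and without obese tumor-associated mouse 1). The 1 member called there became 0 without a filter, with the mouse as a replicate block and without obese tumor-associated mice 0 and 4, became 2 without obese control mice 1 and 3, and was 0 to 2 with 1 library left out. The replicate block changed the call of Slc2a1 there (1.53, adjusted p = 0.0597) and of Slc2a6 in obese tumor-associated against control IWAT (1.10, adjusted p = 0.0229), and of no other member. With upper-quartile scaling, Slc2a8 also passed in obese against lean tumor-associated IWAT (-0.37, adjusted p = 0.0297). The sign turned for some members that were not called. Beside the tumor in obese mice, Slc2a3 became -0.019 and Slc2a10 -0.00114 with upper-quartile scaling, Slc2a3 -0.29 without tumor-associated mice 0 and 4, and Slc2a10 -0.12 without control mice 1 and 3. Without those control mice, Slc2a6 became -0.41 in obese against lean control IWAT. In the obese minus lean difference, Slc2a3 became 0.13 with the block and 0.23 without control mice 1 and 3. With 1 library left out, values ran from -0.34 to 0.45 for Slc2a3 and -0.087 to 0.20 for Slc2a12 in lean mice, from -0.16 to 0.34 for Slc2a3 and -0.041 to 0.16 for Slc2a10 in obese mice, and from -0.39 to 0.40 for Slc2a3 and -0.34 to 0.40 for Slc2a6 in the difference. The cause was not tested. With under 30 counts in many libraries, Slc2a6 and Slc2a12 carry the widest counting error of the members besides Slc2a5 in obese IWAT. Among the other named genes, leaving out 1 library ended the call between the diets in control IWAT in 5 of 22 fits for Slc5a9, 3 for Tbc1d4 (lean control mice 2 and 6, obese control mouse 0) and 1 for Gpi1 (lean control mouse 6).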

Other observations

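Slc2a2 encodes GLUT2, the transporter of liver and of pancreatic beta cells. Its level varied between 0.143 CPM (obese control mouse 8) and 14.4 CPM (obese tumor-associated mouse 1), with a wide spread in each group. The genes most like it over the 22 libraries were Ugt2b36 (r = 0.979), Cyp2d26 (0.977) and Cfi (0.971), and with group means removed r was 0.981, 0.980 and 0.974. Ugt2b36 and Cyp2d26 encode enzymes of drug metabolism and Cfi encodes complement factor I, all best known from liver. Ugt2b36 was at 18.6 CPM in obese tumor-associated mouse 1 and at 0.286 CPM in obese control mouse 8. None of these differed between groups in edgeR. The origin of this RNA was not tested.

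Slc2a9, a urate transporter, was at 5.60 ± 2.31 CPM in lean control (SD, n = 5), 6.75 ± 1.53 in lean tumor-associated (SD, n = 5), 8.20 ± 1.62 in obese control (SD, n = 6) and 9.79 ± 1.74 CPM in obese tumor-associated IWAT (SD, n = 6). Its differences between the diets, 0.55 (edgeR adjusted p = 0.101) in control and 0.54 (edgeR adjusted p = 0.0548) in tumor-associated IWAT, missed the threshold in edgeR. DESeq2 called the second (adjusted p = 0.0432) and not the first (0.0817).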
